A study of Mus musculus with 6 samples.

Results

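The low-methylated domains of lung endothelial cells are the 100-kb stretches of the autosomal genome with the least DNA methylation. They were chosen by their measured level: of 18235 non-overlapping 100-kb bins with at least 50 usable 1-kb windows, those whose mean over all 6 samples lay under 65% are the 1016 members. A window was usable when it had a value in all 6 samples and none under 0.01% or above 99.99%. The level of a domain is the plain mean of its windows, in percent of methylated CpG as deposited, and the other 17219 bins are called the other bins below. Since the level chose the domains, levels of the domains beside those of the other bins are descriptions with no test.

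The cells were endothelial cells, the lining of blood vessels, sorted by FACS from lungs of wild-type mice. The 3 samples titled aged were taken as the 18-month age that the series' design names, and the 3 titled mAdu as its 8-month age, since the design does not tie ages to titles. No transgene or treatment is named for either group, and strain and sex are not stated. Nothing in the labels tells if the 3 samples of an age are 3 separate mice, so each p-value measures only how these samples vary, and that variation may be technical. Read coverage is not part of the table used here, so the depth behind each value is unknown, and the variation of samples around their group mean stands in for its error.

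Most CpG sites of a mammalian genome are methylated, and the main exceptions are CpG islands, CpG-dense stretches at the promoters of many genes. Genes for transcription factors of the embryo, such as the Hox clusters, often sit in unmethylated stretches much longer than an island, which in cells that do not use them are commonly held by Polycomb proteins. Enhancers that are active in a cell type are also low in methylation, and imprinted genes carry methylation on the copy from only 1 parent.

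The labelled cell type was checked at transcription starts, using for each marker gene its least methylated start. Endothelial identity genes had a median level of 1.79% at the window of the start (11 of 20 genes with a start sequence, range 0.814% to 29.7%) and lung capillary genes of 3.54% (8 of the 19 listed genes). Markers of epithelial cells had a median of 37.1% (9 of 15 genes, range 1.59% to 61.8%), those of blood cells 59.6% (10 of 15 genes, range 19.2% to 87.8%) and those of mesenchymal cells 18.1% (8 of 14 genes, range 2.02% to 64.2%). Starts of Hox genes (22 of 39 genes) and of developmental transcription factors (47 of 65 genes) were as low, with medians of 3.33% and 1.94%, so a low start does not by itself mark an endothelial gene. How far other cells remained after the sort was not tested.

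Promoter sequences of domain genes ranged from CpG-dense to nearly free of CpG, and 6 are shown because their CpG content and their methylation did not run together. Each is the RefSeq sequence of GRCm38.p6 (the coordinates of mm10) from 250 bases before to 50 bases after an annotated start, read 5′ to 3′ on the strand of the gene, with the CpG dinucleotides in capitals. Zic1 and Tfap2b, transcription factors of the embryonic nervous system and neural crest, stand for the developmental domains; Itpkb, a kinase of inositol phosphates, and Eng, a TGF-beta co-receptor of endothelial cells, for domains of genes at work in many or in vascular cells; Magel2, an imprinted gene, and Vmn1r127, a pheromone receptor, for domains with few unmethylated windows. Zic1 (chr9:91365719-91366018, minus strand) had 31 CpG, Tfap2b (chr1:19211804-19212103, plus strand) 8, Itpkb (chr1:180330226-180330525, plus strand) 5, Eng (chr2:32646345-32646644, plus strand) 6, Magel2 (chr7:62376729-62377028, plus strand) 10 and Vmn1r127 (chr7:21319812-21320111, minus strand) 3.
Zic1: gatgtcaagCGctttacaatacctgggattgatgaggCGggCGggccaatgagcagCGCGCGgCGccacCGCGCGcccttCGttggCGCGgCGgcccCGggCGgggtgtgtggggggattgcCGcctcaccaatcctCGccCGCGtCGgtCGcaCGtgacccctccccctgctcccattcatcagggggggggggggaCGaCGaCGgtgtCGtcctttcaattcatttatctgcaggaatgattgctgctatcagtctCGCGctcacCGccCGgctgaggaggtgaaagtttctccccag
Tfap2b: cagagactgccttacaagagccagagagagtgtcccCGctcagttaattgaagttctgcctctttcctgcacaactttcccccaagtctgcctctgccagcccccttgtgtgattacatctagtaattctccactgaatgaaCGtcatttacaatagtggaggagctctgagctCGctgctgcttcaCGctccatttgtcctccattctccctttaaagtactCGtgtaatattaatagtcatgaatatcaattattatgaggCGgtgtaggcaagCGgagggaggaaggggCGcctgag
Itpkb: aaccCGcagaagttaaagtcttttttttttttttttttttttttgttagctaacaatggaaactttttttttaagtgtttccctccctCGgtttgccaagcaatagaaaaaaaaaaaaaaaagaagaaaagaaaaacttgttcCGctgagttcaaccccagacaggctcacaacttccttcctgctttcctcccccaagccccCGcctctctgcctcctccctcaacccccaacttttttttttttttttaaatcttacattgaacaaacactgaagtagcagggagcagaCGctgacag
Eng: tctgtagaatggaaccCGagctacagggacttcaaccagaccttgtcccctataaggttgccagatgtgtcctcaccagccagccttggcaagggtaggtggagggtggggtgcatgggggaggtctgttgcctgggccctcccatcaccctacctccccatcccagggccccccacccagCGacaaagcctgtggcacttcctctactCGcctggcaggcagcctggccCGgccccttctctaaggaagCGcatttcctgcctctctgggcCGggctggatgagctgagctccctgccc
Magel2: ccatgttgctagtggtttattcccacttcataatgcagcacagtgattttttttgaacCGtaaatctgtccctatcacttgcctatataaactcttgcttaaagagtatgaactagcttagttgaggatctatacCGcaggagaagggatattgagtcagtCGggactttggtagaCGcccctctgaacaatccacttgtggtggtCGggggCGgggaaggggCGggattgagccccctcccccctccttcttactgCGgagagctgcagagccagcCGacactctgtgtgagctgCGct
Vmn1r127: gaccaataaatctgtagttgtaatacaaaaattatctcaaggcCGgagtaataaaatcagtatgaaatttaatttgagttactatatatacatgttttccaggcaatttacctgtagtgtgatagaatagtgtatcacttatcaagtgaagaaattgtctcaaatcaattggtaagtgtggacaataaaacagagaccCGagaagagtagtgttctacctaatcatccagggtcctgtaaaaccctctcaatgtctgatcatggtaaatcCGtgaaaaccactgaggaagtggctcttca

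The 1-kb window that holds the start of Zic1 was at 3.17%, 1.49% and 3.69% in the aged samples, against 2.14%, 1.89% and 2.11% in mAdu samples. The CpG-poor start of Itpkb was as low, at 0.377%, 0.107% and 0.129% in aged samples, against 0.331%, 2.39% and 0.282% in mAdu samples, and that of Eng stood at 3.36%, 4.41% and 2.48% in aged samples, against 2.87%, 4.68% and 3.72% in mAdu samples. All 6 samples were near 0 at these 3 starts, and the groups overlapped. Tfap2b was likewise near 0, with a mean of 1.15% ± 0.511 in aged and 1.28% ± 0.365 in mAdu samples (SD, n = 3 each). Magel2 was partly methylated in every sample, at 24.2%, 43.0% and 28.9% in aged samples and at 28.0%, 35.7% and 27.0% in mAdu samples. Vmn1r127 was partly methylated and more variable, at 45.8%, 39.4% and 55.5% in aged samples and at 92.8%, 36.9% and 29.4% in mAdu samples, where replicate 1 stood above the other samples.

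Promoters of domain genes held CpG about as often as promoters elsewhere, and the CpG-poor ones among them were less methylated. Of 2416 promoters in the domains, 55.0% held at least 15 CpG (the dinucleotide CG, which reads the same on both strands), against 52.4% of 15613 promoters in the other bins; over all 31396 autosomal promoter sequences of 300 bases, those of noncoding genes included, the share was 35.2%. With at least 15 CpG, the window of the start had a median level of 1.58% in the domains and 1.43% in the other bins. With fewer CpG, it had a median of 23.5% in the domains (1025 starts) and 54.4% in the other bins (6891 starts). Those windows are part of the level that chose the domains, so this difference is a description. Promoter sequences were found for 16457 of 20665 protein-coding autosomal genes, and none from 1 chromosome.

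Windows around transcription starts in the domains were lower than those around starts in other bins at every distance plotted. Starts were sorted by their own bin, and a window at a distance from a start may lie in another bin. At the start itself the windows averaged 16.6% in the domains and 23.5% in the other bins. Windows 10 kb upstream averaged 61.9% for starts in the domains and 73.6% for starts in the other bins. Of the windows at a start, 74.5% lay under 20% in the domains, against 66.9% in the other bins. The gap between starts in domains and starts in other bins was wider 10 kb from the start than at the start.

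**Figure D1:**
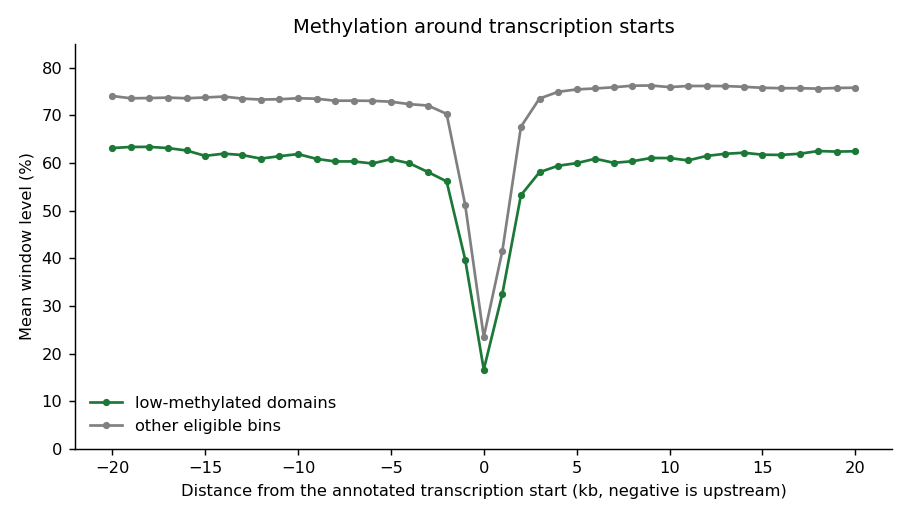
Mean methylation level of 1-kb windows (vertical axis, percent) by distance from annotated starts of protein-coding genes (horizontal axis, kb), for starts in the low-methylated domains (green) and in other eligible bins (grey), each the mean of 6 samples. Both lines fall at the start, to 16.6% in the domains and 23.5% in the other bins, and the green line lies under the grey one on both sides.

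Domains reached their low level in 2 ways: through unmethylated windows, and through windows of intermediate level. Windows under 20% made up 12.6% of a domain on average and 2.45% of another bin, and windows above 80% made up 24.8% of a domain and 47.5% of another bin. Leaving out the windows under 20%, the remaining windows of domains still averaged 68.0%, against 76.6% in the other bins. Domains held 2.33 protein-coding genes on average and the other bins 0.925, and 18.7% of domains held no such gene, against 49.5% of the other bins. Inside genes, windows of domains averaged 57.9%, and between genes 62.9%.

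By the share of windows under 20%, 138 domains are called island-rich (20% of windows or more), 712 mixed, and 166 sparse (5% or less). The name island-rich stands for this share only, since neither CpG islands nor the CpG density of windows was measured. Of 389 promoters in island-rich domains, 64.5% held at least 15 CpG. Those with fewer CpG had a median of 2.88% at the window of the start. Island-rich domains spanned levels of 8.63% to 64.0%, with 27.5% of their windows under 20% on average, and 12 of them held no protein-coding gene. In mixed domains 12.1% of windows lay under 20% and 28.1% above 80%. In sparse domains 2.29% of windows lay under 20%, 86.0% lay from 20% to 80%, and 11.7% lay above 80%; 66 of these 166 held no protein-coding gene. The longest unbroken stretch of windows under 20% had a median of 9.50 kb in island-rich, 4 kb in mixed and 1 kb in sparse domains, and reached 10 kb in 69 island-rich, 36 mixed and 0 sparse domains. A window that was not usable, or the edge of the domain, ended a stretch.

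**Figure D2:**
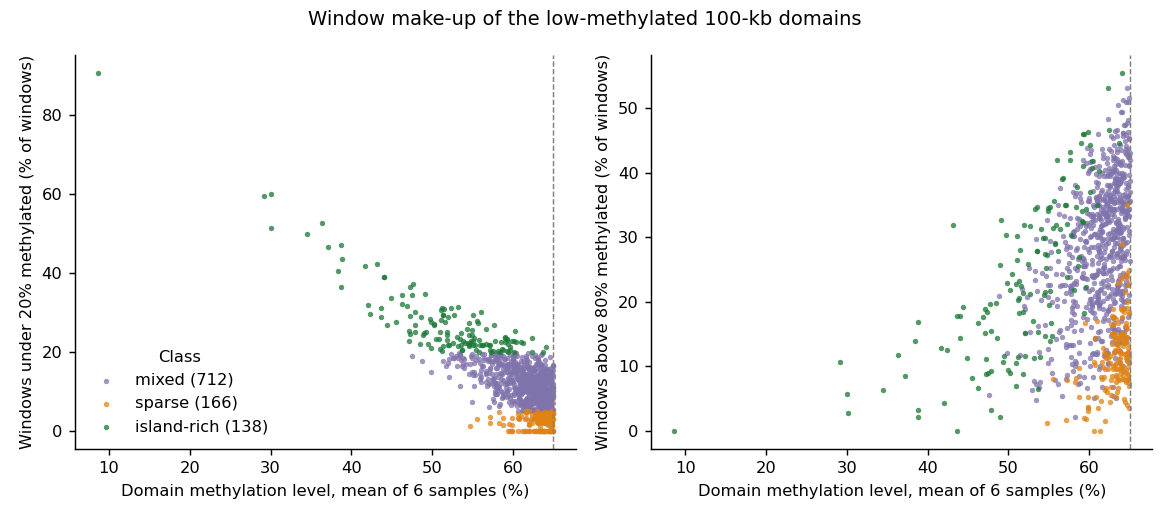
Each point is a low-methylated domain, at its level (horizontal axis, percent, mean of 6 samples) and its share of 1-kb windows under 20% (left) or above 80% (right), coloured by class; the dashed line is the 65% limit. The 138 island-rich domains hold the lowest levels, down to 8.63%, while the 166 sparse domains lie above 54.7% with few windows at either extreme.

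Hox genes, which set position along the body axis, all lay in low-methylated domains, 39 of 39 in 9 domains, against 2366 of 18295 protein-coding genes (12.9%) over all eligible bins. The domain from Hoxc13 to Hoxc8 (chr15:102900001-103000000) was the least methylated of all, at 8.25%, 8.91% and 8.57% in aged samples and at 8.56%, 8.77% and 8.73% in mAdu samples. Of its 87 windows, 90.8% lay under 20% and 0 above 80%, and the spread between its windows (SD 13.4 points) was small beside that of other Hox domains. Samples of both ages lay within 1 point of each other there.

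The Hoxa domain (chr6:52200001-52300000) was at 29.4%, 29.2% and 29.9% in aged samples and at 28.9%, 28.9% and 28.8% in mAdu samples, so that each aged sample was above each mAdu sample. The domain of Hoxc4, Hoxc5 and Hoxc6 (chr15:103000001-103100000) averaged 30.3% ± 0.398 in aged and 29.9% ± 0.475 in mAdu samples. That of Hoxb6 to Hoxb9 (chr11:96200001-96300000) averaged 34.7% ± 0.185 in aged and 34.3% ± 0.0975 in mAdu samples. The 2 Hoxd domains (chr2:74600001-74700000 and chr2:74700001-74800000) averaged 36.4% ± 0.677 and 38.7% ± 0.140 in aged samples, against 36.4% ± 0.274 and 38.8% ± 0.322 in mAdu samples. All SDs are over 3 samples a group.

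Developmental transcription factors were in domains for 55 of 64 listed genes (85.9%), in 51 domains with a median bin level of 55.5% over all 64 genes. Zic1 and Zic4 (chr9:91300001-91400000) were at 29.8% ± 0.361 in aged and 30.2% ± 0.656 in mAdu samples, and Tfap2b (chr1:19200001-19300000) at 36.9% ± 0.225 in aged and 37.4% ± 0.451 in mAdu samples. Six2 and Six3, factors of kidney and forebrain (chr17:85600001-85700000), stood at 38.8%, and Uncx, a factor of the somites (chr5:139500001-139600000), at 42.0%. Hand2, a heart and limb factor (chr8:57300001-57400000), stood at 41.7%. Further low domains held En2, the Dlx5 and Dlx6 pair, Tfap2a and Lhx2, at 43.7% to 47.2%.

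Counted over usable windows without a gap, the longest stretch under 20% was not in the domain with the lowest mean. This stretch, 31 kb of consecutive windows under 20%, lay in the domain of Pax6, an eye and pancreas factor (chr2:105600001-105700000), whose level was 46.2%. The domain of Hoxd10 to Hoxd13 and Evx2 had 27 kb, and those of Uncx and Barhl2 25 kb each. In the Hoxc13 domain the longest piece was 22 kb, and a window that was not usable ended it on either side. There all usable windows centred from 45.5 to 87.5 kb after the start of the domain lay under 20%. The order of these lengths therefore depends on which windows were usable.

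**Figure D3:**
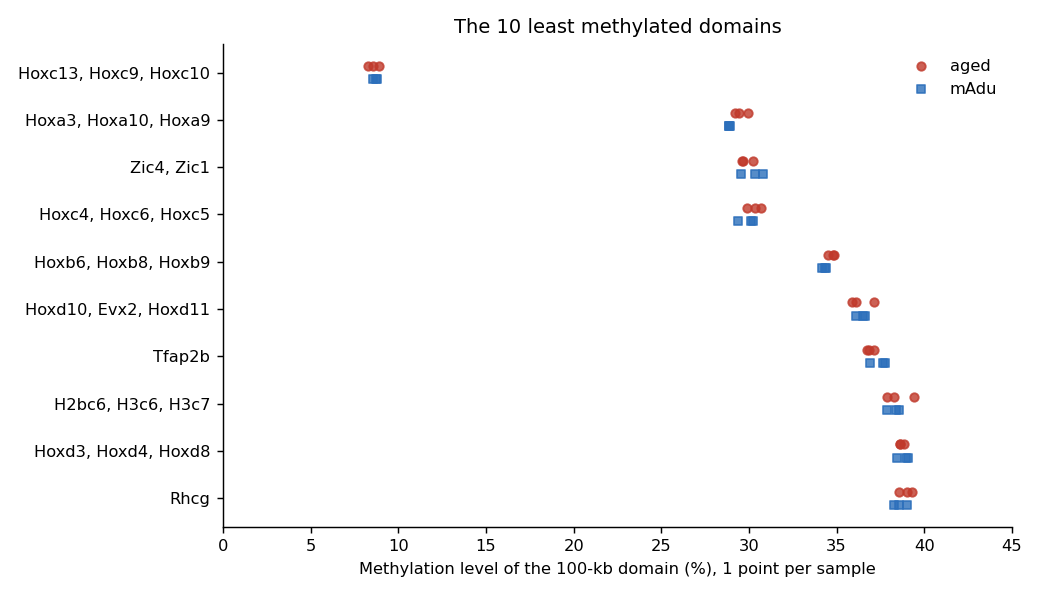
Methylation level of the 10 least methylated domains (horizontal axis, percent), 1 point per sample, aged as circles above mAdu as squares, named by up to 3 of their genes. The Hoxc13 domain stands alone at 8.63% on average, the other 9 lie between 29.2% and 38.8%, and samples within a domain differ far less than domains do.

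Histone genes were in domains for 58 of 80 genes (72.5%), in 7 domains. The domain of H2bc6, H3c6, H3c7 and H1f3, genes of the core and linker histones of replicating chromatin (chr13:23500001-23600000), was at 38.3%, 37.9% and 39.4% in aged samples and at 37.9%, 38.4% and 38.5% in mAdu samples. The histone run on the same chromosome (chr13:21700001-22100000) averaged 57.2% ± 0.514 in aged and 57.7% ± 0.234 in mAdu samples. That on chromosome 3 (chr3:96200001-96600000) averaged 54.5% ± 0.300 in aged and 54.8% ± 0.843 in mAdu samples. Histone genes of the same type can be alike in sequence, so reads may have been shared between such genes, but this was not measured.

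Clustered protocadherins, adhesion proteins that give neurons their identity, were in domains for 37 of 57 genes. A run of 6 adjacent domains (chr18:36900001-37500000) held genes of their alpha and beta clusters (Pcdha and Pcdhb), but none named Pcdhg, the gamma cluster. The run was at 62.3% ± 0.922 in aged and 62.4% ± 0.131 in mAdu samples, with 1.71% of windows under 20% and 9.88% above 80%. Zinc finger genes named Zfp, a large family of DNA-binding factors, were in domains for 22 of 362 genes (6.08%), and olfactory receptors for 22 of 361 (6.09%). Beta-defensins, kallikreins and the Ceacam and Psg genes were in 0 domains, of 32, 27 and 21 genes in eligible bins. Genes of the skin barrier named Lce and Sprr were in 1 domain for 6 of 7 genes, keratins for 7 of 102 and cytochromes P450 for 11 of 73. Schlafen and Skint genes were in domains for 2 of 11, and segments of T cell receptor and immunoglobulin genes for 34 of 275 (12.4%). All these counts cover only genes in eligible bins. Such bins held 361 of 1104 olfactory receptors, 7 of 35 Lce and Sprr genes and 275 of 655 receptor and immunoglobulin segments. The rest of each family could not be judged.

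Endothelial genes lay in domains more often than the average gene. Of 20 endothelial identity genes 8 lay in domains, and of the 18 lung capillary genes on autosomes and in eligible bins 9; Apln, the remaining gene of that list, is on chromosome X. The domain of Epas1, the hypoxia-inducible factor that is abundant in endothelium (chr17:86700001-86800000), was the lowest of them, at 43.3%, 43.1% and 43.7% in aged samples and at 43.5%, 42.8% and 42.7% in mAdu samples. Its level came from opposite ends: 42.3% of its windows lay under 20% and 32.0% above 80%. Windows inside the annotated gene (chr17:86753864-86833410) averaged 10.3% ± 0.526 in aged and 9.86% ± 0.489 in mAdu samples over 47 windows, and those before it averaged 74.5% ± 0.117 in aged and 74.2% ± 0.579 in mAdu samples over 50 windows. An unbroken 22 kb inside the gene lay under 20%.

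Calcrl, a subunit of the adrenomedullin receptor (chr2:84300001-84400000), had the next lowest endothelial domain, at 44.5% ± 0.551 in aged and 44.3% ± 1.48 in mAdu samples. That of Egfl7, a secreted endothelial protein, with Notch1, a receptor of arterial fate, next to it (chr2:26500001-26600000), was at 49.0% ± 0.708 in aged and 49.1% ± 0.300 in mAdu samples. Egfl7 has 3 annotated starts, whose windows stood at 13.4%, 2.45% and 1.79%. Cdh5, the cadherin of endothelial junctions (chr8:104100001-104200000), was at 53.4% ± 0.247 in aged and 53.1% ± 0.854 in mAdu samples. The transcription factor Erg (chr16:95400001-95500000) stood at 54.5%, Eng (chr2:32600001-32700000) at 54.7%. The domains of the VEGF receptor Kdr (gene at chr5:75932827-75979072) and the guidance receptor Robo4 (chr9:37401902-37414023) stood at 57.7% and 58.4%. Those of the junction proteins Pecam1 (chr11:106654213-106715281) and Esam (chr9:37528089-37538319) stood at 60.9% and 63.8%.

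Other capillary genes had domains as well. The levels that follow are those of the domains, and the coordinates are those of the genes. The domain of Cd93, a surface receptor (gene at chr2:148436651-148443535), was at 57.6%. Those of the transcription factors Foxf1 (gene at chr8:121084386-121088154), Tbx3 (gene at chr5:119670534-119684724) and Tbx2 (gene at chr11:85832615-85841948) were at 58.5%, 59.0% and 62.6%. The domain of Plvap, the protein of fenestral diaphragms (gene at chr8:71497753-71511806), was at 60.02%. That of Ptprb, an endothelial phosphatase (gene at chr10:116275502-116389538), was at 60.6%, and that of Ramp2, the partner of Calcrl (gene at chr11:101246334-101248250), at 61.2%. The Foxf1 domain (chr8:121000001-121100000) held 21 kb of consecutive windows under 20%. The bins of other endothelial genes were not under the limit, among them those of Cldn5 at 67.2%, Sox17 at 67.9%, Tie1 at 69.8%, Tek at 72.2% and Vwf at 76.8%.

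Markers of other lung cells were in domains as well, for 30.8% to 35.7% of the genes of a list, beside 40.0% of endothelial identity and 50% of capillary genes. They numbered 5 of 14 for epithelial genes, with Nkx2-1, the lung epithelial factor, lowest at 47.9%; 4 of 13 for blood cell genes, with Cd79a lowest at 62.8%; and 4 of 13 for mesenchymal genes, with Col1a1 lowest at 59.2%.

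**Figure D4:**
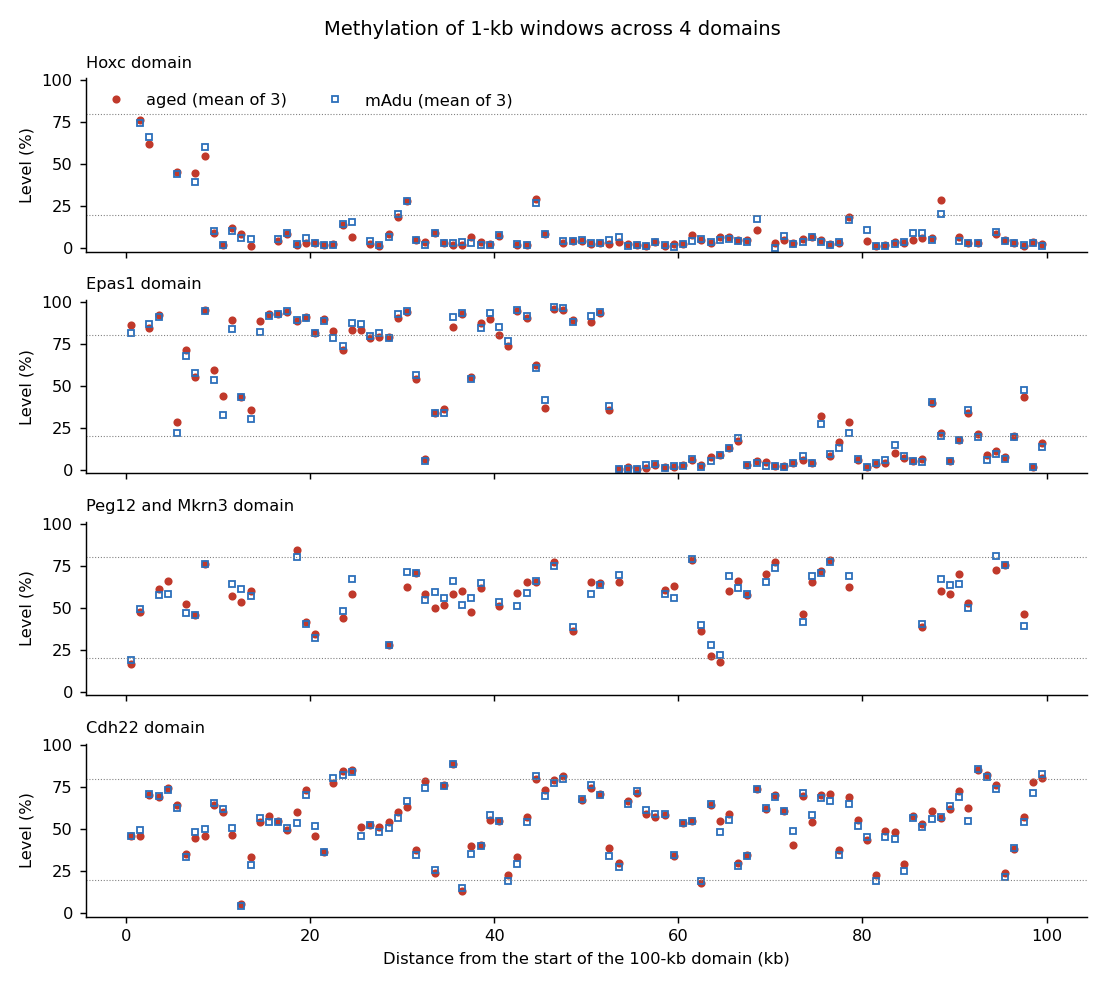
Methylation level (vertical axis, percent) of usable 1-kb windows along 4 domains (horizontal axis, kb from the start of the domain), aged means of 3 samples as filled circles and mAdu means as open squares, with dotted lines at 20% and 80%. The Hoxc domain is low along most of its length, the Epas1 domain changes from high to low at 53.9 kb where the gene span begins, and the Peg12 and Cdh22 domains lie mostly between the lines.

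Sparse domains held different genes. The lowest of them (chr6:114500001-114600000) held no protein-coding gene and averaged 53.7% ± 1.54 in aged and 55.8% ± 1.78 in mAdu samples, with 97.7% of its windows from 20% to 80%. The next, inside Cdh22, a cadherin of the nervous system (chr2:165100001-165200000), was at 55.4%, 56.4% and 56.1% in aged samples and at 54.7%, 55.1% and 55.4% in mAdu samples. Its longest piece under 20% was 1 kb, and windows within it had an SD of 17.9 points, against 37.0 points in the Epas1 domain.

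Imprinted genes of the Prader-Willi region on chromosome 7 lay in neighbouring sparse domains. The domain of Peg12 and Mkrn3 (chr7:62400001-62500000) was at 57.9%, 55.4% and 57.2% in aged samples and at 56.8%, 57.7% and 57.5% in mAdu samples, with 94.8% of its 58 usable windows from 20% to 80%. The domain of Magel2 and Ndn (chr7:62300001-62400000) was at 59.3%, 58.6% and 59.3% in aged samples and at 61.2%, 60.2% and 60.4% in mAdu samples. There the aged samples were all lower than the mAdu samples. The windows at the starts of Ndn, Peg12 and Mkrn3 stood at 17.8%, 19.6% and 33.3%. In the same region, a run of 4 adjacent domains (chr7:59400001-59800000) held 0 protein-coding genes but 158 annotated small nucleolar RNAs and 2 long noncoding RNAs, Snhg14 and Ipw among its transcripts. That run averaged 62.4% ± 1.71 in aged and 63.4% ± 0.374 in mAdu samples, with 0 windows under 20%.

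Vomeronasal receptors, the pheromone receptors of the nasal organ, were in domains for 29 of the 106 genes in eligible bins (27.4%), in 13 domains. The family has 354 genes in the annotation used, so most of it could not be judged. The domain of Vmn1r165 and Vmn1r166 (chr7:23200001-23300000) averaged 59.1% ± 1.75 in aged and 57.3% ± 3.08 in mAdu samples. That of Vmn1r126 to Vmn1r129 (chr7:21300001-21400000) averaged 58.6% ± 2.67 in aged and 58.9% ± 2.49 in mAdu samples. These SDs exceeded those of the Hox domains, and the median SD between samples was 0.611 points in sparse domains, against 0.418 points in island-rich ones. Sparse domains also had fewer usable windows, with a median of 80.5, against 92 in island-rich ones. Some vomeronasal genes may be alike enough for reads to be split between them, but this was not measured.

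In 1 sparse domain a single sample stood far apart. At Fam205a3 (chr4:42300001-42400000), which had only the minimum of 50 usable windows, aged replicates 1, 2 and 3 were at 59.95%, 99.8% and 42.9%, against 50.7%, 62.5% and 52.0% in mAdu samples. A sparse domain at 2410141K09Rik (chr13:66400001-66500000, 51 windows) was also variable, at 56.6%, 56.9% and 65.7% in aged samples and at 55.8%, 60.4% and 47.7% in mAdu samples.

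The domains formed 758 runs of adjacent bins, of which 579 were a single bin, and 437 domains had another next to them. The longest runs had 6 bins: the protocadherin run, and another from Nova2 to Ckm (chr7:18900001-19500000) with 32 protein-coding genes, at 61.4% ± 0.191 in aged and 61.3% ± 0.224 in mAdu samples. Runs of 5 bins included those at Nfic and Map2k2 (chr10:81100001-81600000, 57.1%), at Cacna2d2 and Dock3 (chr9:107200001-107700000, 58.6%) and at Wscd2 (chr5:113100001-113600000, 62.2%). A run of 4 (chr4:125200001-125600000) at 60.7% overlapped a single protein-coding gene, the glutamate receptor gene Grik3. That gene (chr4:125490259-125714173) covers only the last part of the run and reaches beyond it.

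The bins next to a domain were lower than bins farther away, and more of them were domains themselves: 26.9% of the eligible bins 100 kb before a domain and 26.7% of those 100 kb after, against 12.7% and 12.8% at 500 kb, where 1016 of all 18235 bins were domains. Bins 100 kb before and after averaged 68.8% and 68.6%, those 500 kb away 71.9% and 71.7%, and all other bins together 74.8%. Chromosome 7 had the highest share of its eligible bins among the domains, 110 bins or 10.4%, followed by chromosome 11 with 94 or 9.22%, and chromosome 16 had the lowest, 13 or 1.74%. The domains with the most protein-coding genes, 15 each, were those of Plcb3 and Esrra (chr19:6900001-7000000, 57.6%) and of Anapc2 and Nelfb (chr2:25200001-25300000, 62.5%).

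The 65% limit cuts through a continuum. Just inside it lay the domains of Tmigd3 (64.98%), Rnf141 (64.99%), Piezo2 (64.99%), Notch4 with Ager (64.997%) and Irs2 (64.997%), and just outside it the bins of Nfasc (65.001%), Dpp6 (65.004%), Slc43a1 (65.01%), Galnt9 (65.01%) and Dmc1 (65.02%). Chosen by aged samples alone there would be 1028 domains, of which 995 are members, and by mAdu samples alone 1017, of which 994 are members. In single samples 944 to 983 of the 1016 lay under the limit, and 862 lay under it in all 6 samples.

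The domains were then compared between aged and mAdu samples, a difference that the rule did not use. Limma, fitted to all 18235 bins with Benjamini-Hochberg adjustment at 0.05, called 0 of 1016 domains, and over all bins percent called was 0. The 95% interval of the difference had a median half-width of 0.942 points, and lay within 5 points on both sides of 0 for 98.9% of domains. At an unadjusted p under 0.05 there were 62 domains (6.10%), 38 of them higher and 24 lower in aged samples, where the share of all bins was 4.57%, with 287 higher and 547 lower. The split of the domains was 28 higher and 37 lower without aged replicate 3, and 32 higher and 37 lower without mAdu replicate 3. For these fits the split over all bins is not given here. The groups did not overlap in 115 domains (11.3%), 72 higher and 43 lower in aged samples, where the share of all bins was 9.49%, with 657 higher and 1074 lower. The mean was higher in aged samples in 528 domains (52.0%), where the share of all bins was 43.3%. With 80 or more windows a bin, 7.87% of domains had a p under 0.05, against 4.62% of all bins, and with bins shifted by 50 kb 7.14% of domains, also against 4.62%. Single 1-kb windows went the other way: 4.04% of those in domains (3547 of 87805) had an unadjusted limma p under 0.05, against 4.73% of all 1654777 windows.

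The 5 domains with the smallest p in each direction did not pass, each with limma's adjusted p of 0.921. Higher in aged samples was that of Scn7a, a sodium channel gene (chr2:66700001-66800000), at 62.2%, 62.4% and 63.5% in aged samples, against 60.4%, 60.1% and 61.0% in mAdu samples, a difference of 2.23 ± 0.473 points (SE). The domain of Sptbn1, a spectrin of the membrane skeleton (chr11:30200001-30300000), was at 43.3%, 42.9% and 42.7% in aged samples, against 41.4%, 42.1% and 41.6% in mAdu samples, a difference of 1.26 points. Lhx2, a forebrain and limb factor (chr2:38300001-38400000), differed by 1.15 points, Col4a1, a collagen of basement membranes (chr8:11200001-11300000), by 1.61 points, and the domain of Vmn1r111 to Vmn1r113 (chr7:20700001-20800000) by 3.90 points.

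Lower in aged samples was the domain of Meis2, a partner of Hox proteins (chr2:116000001-116100000), at 61.2%, 61.3% and 60.9% in aged samples, against 62.9%, 62.8% and 62.4% in mAdu samples, a difference of -1.59 ± 0.343 points (SE). Pirb and Pira1, immunoglobulin-like receptors of immune cells (chr7:3700001-3800000), differed by -2.91 points, with aged samples at 62.7%, 62.5% and 62.7%, against 67.1%, 65.9% and 63.6% in mAdu samples. Tns1, a focal adhesion protein (chr1:74000001-74100000), differed by -1.68 points, the imprinted Magel2 and Ndn domain by -1.52 points, and the Defa22, Defa30 and Defa31 domain of alpha-defensins (chr8:21100001-21200000) by -2.72 points. In these 10 domains, chosen by their p, aged and mAdu samples did not overlap.

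Taken as 1 value per sample, the domains averaged 60.2%, 60.3% and 60.5% in aged samples and 60.4%, 60.3% and 60.1% in mAdu samples. The difference of 0.0486 points was smaller than the SD of either group (0.180 in aged, 0.134 in mAdu; two-sided exact permutation p = 0.7, where 3 samples against 3 cannot go below 0.1). It turned to -0.0452 points without aged replicate 3 and to -0.0236 points without mAdu replicate 3. Domains minus other bins came to -14.4 points in aged samples and -14.5 points in mAdu samples, and the difference of these gaps was 0.140 points (exact permutation p = 0.3). That difference was 0.0282 points without aged replicate 2, 0.223 points without aged replicate 3 and 0.0144 points with extreme windows kept. By class, aged minus mAdu was 0.121 points in island-rich, 0.0184 in mixed and 0.118 in sparse domains (exact permutation p = 0.4, 0.9 and 0.4, adjusted over the 3 classes 0.6, 0.9 and 0.6). When each sample was left out in turn, it ran from 0.0453 to 0.193 points in island-rich and from 0.0411 to 0.207 points in sparse domains, in both lowest without aged replicate 3. For sparse domains it was 0.0426 points without the Fam205a3 domain.

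Averaged over the 48 domains under 50%, the aged and mAdu samples did not overlap, although they did in 8 of the 10 lowest domains taken singly, all but those of Hoxa and of Hoxb6 to Hoxb9. Over the 48 domains under 50%, samples averaged 43.7%, 43.7% and 43.8% in the aged group and 43.5%, 43.5% and 43.4% in the mAdu group, a difference of 0.290 points (exact permutation p = 0.1, the smallest possible, adjusted over 3 bands 0.3). Of these 48 domains 35 (72.9%) had a higher mean in aged samples, where the share of all bins was 43.3%. The share was 58.4% in domains from 50% to 60% and 48.0% in those from 60% to 65%. All domains come from the same 6 samples, so these counts are descriptions. The difference was 0.111 points in the 274 domains from 50% to 60% (exact permutation p = 0.5) and 0.00744 points in the 694 from 60% to 65% (exact permutation p = 1). When each sample was left out in turn, it ran from 0.240 to 0.337 points in the lowest band and from 0.00591 (without aged replicate 3) to 0.208 points in the middle one. The bands, and the gene and window groups that follow, were chosen after the data had been seen.

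Domains with a Hox or developmental factor gene, 59 in number, were at 51.30%, 51.25% and 51.58% in aged samples and at 51.25%, 51.20% and 51.19% in mAdu samples. The difference of 0.165 points (exact permutation p = 0.1, adjusted over 3 gene groups 0.3) came without overlap, but only just, since aged replicate 2 and mAdu replicate 1 were equal to 2 decimals. It was 0.0640 points without aged replicate 3. Of the 59, 38 (64.4%) had the higher mean in aged samples, where the share of all bins was 43.3%. Of these domains 20 also lie under 50%, which is 33.9% of the 59 and 41.7% of the 48. Domains with an endothelial or capillary gene, 17 in number, differed by -0.0303 points (exact permutation p = 1). Unmethylated windows, those under 20% by the mean of all samples, averaged 7.33% ± 0.103 in aged and 7.25% ± 0.0476 in mAdu samples inside the domains (exact permutation p = 0.3, adjusted over 3 window classes 0.7), and 7.71% ± 0.0877 in aged and 7.73% ± 0.0967 in mAdu samples in the other bins (exact permutation p = 0.7). The gap between domains and other bins at such windows was -0.374 points in aged and -0.486 points in mAdu samples. The groups did not overlap (exact permutation p = 0.1, the smallest possible and not adjusted over the 3 window classes). For windows from 20% to 80% the aged gap minus the mAdu gap was 0.188 points (exact permutation p = 0.3), and for windows above 80% it was -0.000376 points (exact permutation p = 1), both with overlap.

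**Figure D5:**
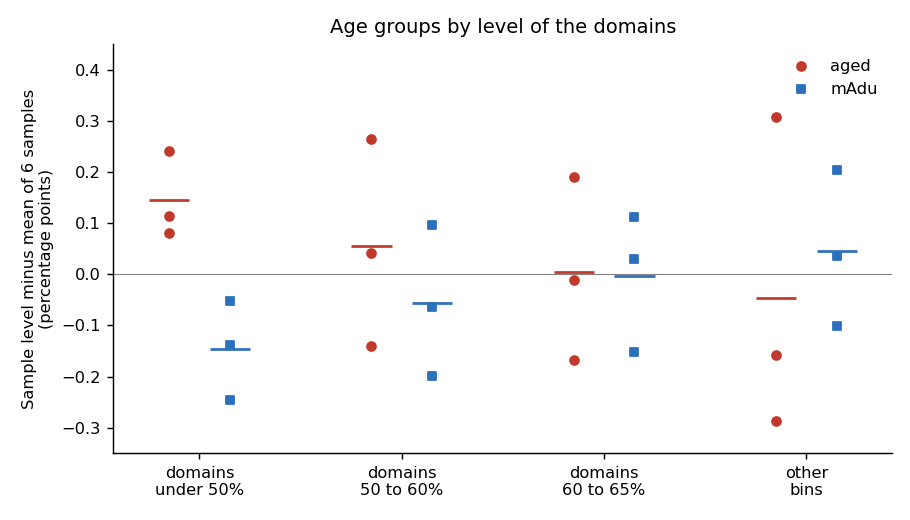
Level of each sample minus the mean of all 6 samples (vertical axis, percentage points) for domains under 50%, from 50% to 60% and from 60% to 65%, and for the other bins, with aged samples as circles left of mAdu samples as squares and bars at the group means. The group values are apart for the average of the 48 domains under 50%, by 0.290 points, and overlap in the other sets.

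Single windows inside the domains differed strongly in a few places. Of 87805 windows in domains limma called 5, 2 higher and 3 lower in aged samples, where 59 of 1654777 windows were called in all (0.00357%). At 34.5 kb from the nearer end of Nkx2-2, a neural and pancreatic factor gene (chr2:147176485-147195434), a window (chr2:147141001-147142000) was at 99.98%, 91.2% and 99.5% in aged samples, against 29.9%, 41.8% and 32.6% in mAdu samples (limma adjusted p = 0.0163, but 0.0514 without aged replicate 3). Inside Cacna2d3, a calcium channel subunit gene, a window (chr14:29002001-29003000) was at 84.8%, 87.4% and 96.8% in aged samples, against 24.8%, 11.2% and 14.97% in mAdu samples (limma adjusted p = 0.0127). Inside Dock3, a neuronal exchange factor gene, a window (chr9:107217001-107218000) was at 49.9%, 50.8% and 49.1% in aged samples, against 96.0%, 97.9% and 99.5% in mAdu samples (limma adjusted p = 0.00525).

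The window inside Gm40862 (chr12:23546001-23547000) averaged 41.7% ± 5.42 in aged and 97.1% ± 1.90 in mAdu samples (limma adjusted p = 0.0121). The largest difference was at Gm25018, annotated as an rRNA gene (chr8:123566001-123567000), at 8.10%, 9.09% and 13.4% in aged samples, against 91.5%, 87.7% and 89.4% in mAdu samples (limma adjusted p = 0.00145). That domain holds 36 annotated rRNA genes, copies among which reads may have been shared. The groups were far apart in all 5 windows, but neighbouring windows of the same domains were not called. The count of called windows was 10 without aged replicate 1, 11 without aged replicate 2, 8 without mAdu replicate 1 and 12 without mAdu replicate 2.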

How the data were processed

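The assay was T-WGBS, bisulfite sequencing of the whole genome from libraries that a transposase fragments and tags; bisulfite converts unmethylated cytosine. Per the labels' protocols, 30 ng of DNA per sample was used, and several libraries per sample were sequenced. Reads were processed with BWA 0.7.8 and mm10, per the submitters' processing notes. For the methylation caller, coverage filters and averaging over windows, the sources used here give no details.

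In the deposited table stands the authors' mean methylation per sample as a fraction (0 to 1) in 1-kb windows of the 19 autosomes, with no coverage. Fractions were multiplied by 100. After the filter on missing and extreme values, 1654777 windows remained and were weighted equally, and a bin needed 50 of them. Bins without that many were not analysed here. Protein-coding genes of the RefSeq table of GRCm38.p6 were counted in the bin with their largest overlap, or for genes spanning whole bins in the first whole bin. A bin is named by genes that overlap it, so a gene in its name may be counted in another bin.

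Limma 3.58.1 (R 4.3.3) tested bins and windows in percent (group as the only term, variance trend, Benjamini-Hochberg adjustment over all bins or all windows at 0.05). The fit was tried on simulated bins that all had the same normal noise. Such bins cover neither windows nor bins with a larger spread. Means of sets, 1 value per sample, were compared by two-sided exact permutation tests. Values are means ± SD over 3 samples a group unless stated. Tables were made with pandas 2.3.3 in Python 3.11.15.

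The rule for named bins took the 10 lowest, the 5 nearest the limit on each side, the longest runs, the 5 lowest sparse ones, the 5 with the smallest p in each direction, the 3 with the most genes and up to 4 per gene list. The next 20 by level, further sparse domains, the Fam205a3 domain and the genes shown by sequence were added after their values were seen. Some items are not reported here. The domains, their limit and the gene lists were chosen with earlier results of these data known. Alternatives covered the limit (60% or 70%), the window minimum (10 or 80), bins shifted by 50 kb, windows with extreme values kept, the logit scale, no variance trend, a limit of 10% for the classes, the replicate number as a block, and each sample left out.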

Additional observations from a re-analysis of the deposited data

How the results depend on the processing

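Limma called 0 domains and 0 bins under each of the 15 alternatives, and the share of domains with an unadjusted p under 0.05 ran from 4.53% to 6.79% when each sample was left out. With all samples it was 6.10% of domains and 4.57% of all bins. Shares of all bins with a sample left out are not given here, so the range is no comparison with them. The number of domains was 788 with 80 or more windows and 1339 with 10 or more. Aged minus mAdu over all domains, 0.0486 points, became -0.0832 with extreme windows kept, -0.0496 with a limit of 70%, -0.0397 with 10 or more windows and -0.00642 with bins shifted by 50 kb, and ran from -0.0452 to 0.134 when each sample was left out. Island-rich domains turned to -0.174 with extreme windows kept. Mixed domains turned to -0.0195 with a limit of 70% and ran from -0.0829 to 0.117 with samples left out. Sparse domains turned to -0.447 with extreme windows kept, -0.0909 with a limit of 70%, -0.204 with 10 or more windows and -0.158 with bins shifted by 50 kb. Domains from 60% to 65% turned to -0.250 with extreme windows kept, -0.00106 with 80 or more windows, -0.105 with 10 or more, -0.0481 with shifted bins and -0.0106 without the Fam205a3 domain, and ran from -0.0853 to 0.0926 with samples left out. Endothelial and capillary domains turned to 0.00457 with extreme windows kept and 0.0483 with 80 or more windows, and ran from -0.227 to 0.110. Domains without a listed gene turned to -0.0959 with extreme windows kept and -0.0494 with 10 or more windows, and ran from -0.0488 to 0.131. Windows from 20% to 80% ran from -0.0223 to 0.191. The cause of these turns was not tested, and each of these differences is smaller than 0.5 points. The domains under 50% and those with Hox or developmental genes kept their direction under the alternatives run for them. For domains under 50%, exact permutation p was 0.8 with extreme windows kept, 0.7 with 10 or more windows and 0.4 with shifted bins. The groups overlapped there. For domains with Hox or developmental genes it was 0.3 with 80 or more windows and 0.2 without aged replicate 3. It was 0.3, 0.4 and 0.4 for these domains without mAdu replicates 1, 2 and 3. Called windows in domains numbered 11 with extreme windows kept and 7 to 12 with samples left out. With the replicate block, 1 of the 5 windows was called, that at Gm25018, and the count of called domains stayed 0. Deviations of same-numbered aged and mAdu samples from their group means correlated with r of 0.0542, 0.0311 and -0.0160 across bins, so the numbers were not taken to pair the samples. Unknown coverage limits every value here.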
